A study of Mus musculus with 7 samples.

Results

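The genes described here make, break down and carry out the signal of cyclic AMP (cAMP): the adenylyl cyclases (Adcy), the phosphodiesterases of families 1 to 8 (Pde), the catalytic (Prkac) and regulatory (Prkar) subunits of protein kinase A, its inhibitor peptides (Pki) and its anchoring proteins (Akap). They were taken from the table of gene counts by their symbols. The symbols matched 49 rows of the 18468 genes listed, and these held 48 different symbols because Pde4d had 2 rows. The table listed no row for Adcy2, Pkib, Pde6b, Pde6c, Akap4 or Akap14.

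RNA was sequenced from C3H10T1/2 cells, an established mouse line of mesenchymal origin, without any introduced gene. The cells were kept without serum for 12 h and then held for 48 h, still without serum, in 2 μM purmorphamine (n = 4 libraries) or with 0.02% DMSO, its vehicle (n = 3 libraries). Purmorphamine is a synthetic agonist of the Hedgehog signal transducer Smoothened. Libraries 2 to 4 were from vehicle and libraries 5 to 8 from purmorphamine. Nothing in the labels tells whether the libraries of a treatment came from separate cultures, so the p-values below measure the spread between these libraries, which may be technical.

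Adenylyl cyclases convert ATP to cAMP when a receptor activates the G protein Gαs, and phosphodiesterases hydrolyze it. cAMP binds the regulatory subunits of protein kinase A and frees the catalytic subunits, which inhibitor peptides can bind in turn, and anchoring proteins hold the kinase close to its substrates. In the absence of a Hedgehog ligand, protein kinase A phosphorylates the Gli transcription factors, which are then cut to repressor forms or degraded, so that the kinase is known as a brake on this pathway.

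The authors resampled the reads to equal numbers before counting, and the totals ran from 14341258 to 14342154 counted reads with DMSO and from 14337225 to 14339393 with purmorphamine. At this depth a count of 0 is compatible with as many as 3 reads (0.209 CPM, counts scaled to the library total), a limit that covers counting error only. Gli1, a direct target of the pathway that serves to check the treatment, had 7 to 12 reads per library with DMSO and 2522 to 3171 with purmorphamine. All 8 markers of mesenchymal cells were detected, of which 4 rose (Thy1, Pdgfra, Twist1 and Prrx1), 2 fell (Vim and Col1a2) and 2 were not called. Their summed reads, 199512 to 204882 with DMSO and 165356 to 174394 with purmorphamine, were dominated by Vim, with 79220 to 81440 and 41359 to 43378 reads, and by Col1a2. Of the other marker lists, those of epithelial and endothelial cells summed to 14 to 22 and 2 to 9 reads with DMSO, and to 111 to 136 and 27 to 30 with purmorphamine. Cdh1 and Cdh5 rose and made up most of these sums with purmorphamine, while Krt8 and Tie1 stood at 0 or 1 read in every library. The blood list held 13 to 19 reads with DMSO and 10 to 21 with purmorphamine. The part of these markers in the values below was not tested. In such bulk samples fewer cells of a type and less RNA per cell cannot be told apart.

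Of the 49 rows, 38 passed the filter on low counts and 11 did not. Those left out never exceeded 15 reads in a library and included Adcy5, Adcy8, Adcy10, Pde1b, Pde1c, Pde2a, Pde4c, Pde6a, Prkar1b, Akap3 and Akap5. A gene was called when edgeR's quasi-likelihood test gave an adjusted p under 0.2, the limit that the study set for its false discovery rate. By this rule 29 of the 38 changed, against 62.5% of the 12388 genes tested. Of the 29, 12 rose with purmorphamine and 17 fell, against 31.4% and 31.1% of all genes. With a change of at least 1.5-fold required as well, 6 of the 38 rose and 6 fell, against 7.89% and 7.56% of all genes. Both counts of rows that rose include Pde7b, which passed the filter only through its purmorphamine libraries. They also include the second Pde4d row, which may be part of the same gene as the first. The reads of the DMSO and purmorphamine libraries did not overlap for 24 of the 38, against 49.5% of all genes tested. The median log2 fold change of the 38 was -0.10, and that of all genes tested was 0.0038.

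**Figure D1:**
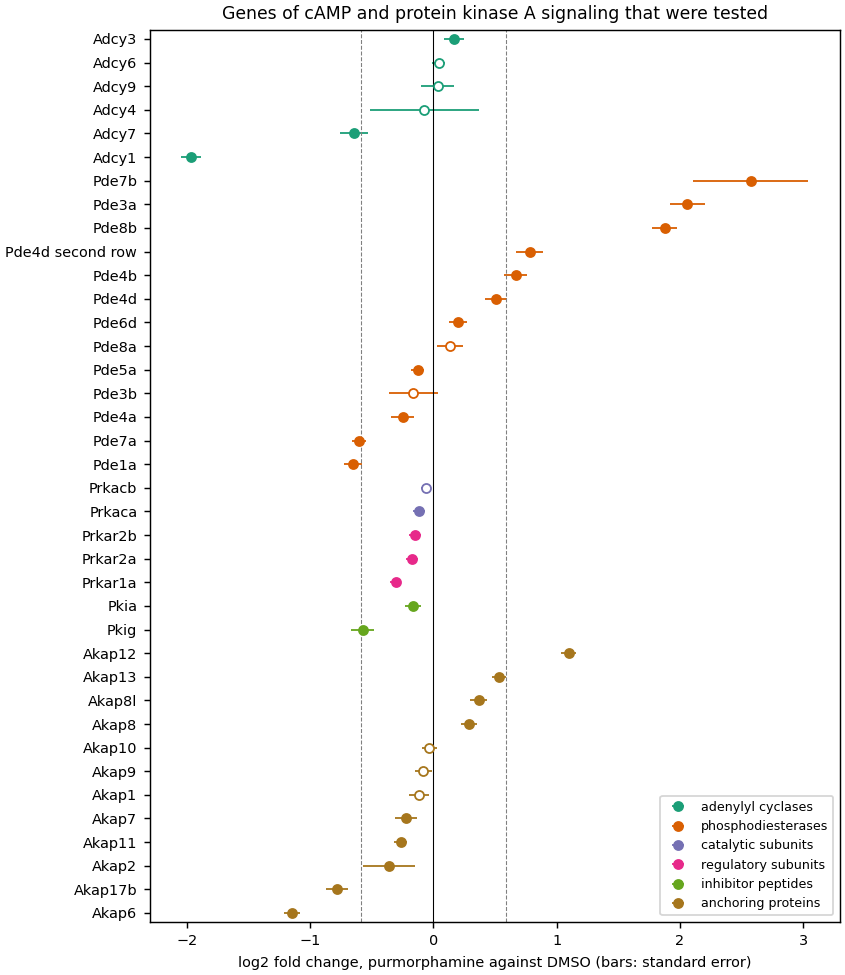
Log2 fold change of each of the 38 rows tested, purmorphamine against DMSO, grouped by family, with bars for the standard error and dashed lines at a 1.5-fold change. Filled points passed an adjusted p of 0.2 and open points did not. Among the phosphodiesterases Pde1a lies lowest at -0.66 and Pde3a at 2.06, while the highest, of Pde7b, rests on no more than 3 reads in any DMSO library. In contrast, the kinase subunits lie between -0.31 and -0.06.

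The promoters of 2 of these genes are shown because they hold motifs that bear on the comparison, a binding motif of the cAMP-responsive factor CREB in the first and that of the Gli factors in the second. The windows run from 250 bases before to 50 bases after a transcription start in RefSeq (GRCm38.p6), and capitals mark the motifs. RefSeq windows were found for 39 of the 48 symbols. The 9 others were not searched: Adcy6, Adcy8, Akap2, Akap12, Pde3a, Pde3b, Pde6a, Pde7a and Pkia. Prkar1a encodes a regulatory subunit and its window on the plus strand is chr11:109650699-109650998, with the cAMP response element TGACGTCA in capitals, its first base 49 bases before the start, while a further TGACG upstream is left in lower case. Pde4b encodes a cAMP phosphodiesterase, and its window on the plus strand, chr4:102421305-102421604, lies inside the gene, which begins at 102087543. The capitals there mark the Gli core ACCACCC, the same core read on the other strand as GGGTGGT, and the shorter CREB core CGTCA, which is TGACG on the other strand.
Prkar1a: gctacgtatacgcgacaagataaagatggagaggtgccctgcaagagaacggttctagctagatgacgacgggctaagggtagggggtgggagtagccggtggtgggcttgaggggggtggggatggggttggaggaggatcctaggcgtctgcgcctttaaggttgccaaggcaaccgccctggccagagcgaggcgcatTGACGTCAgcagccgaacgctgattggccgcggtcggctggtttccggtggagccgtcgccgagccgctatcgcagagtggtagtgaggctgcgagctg
Pde4b: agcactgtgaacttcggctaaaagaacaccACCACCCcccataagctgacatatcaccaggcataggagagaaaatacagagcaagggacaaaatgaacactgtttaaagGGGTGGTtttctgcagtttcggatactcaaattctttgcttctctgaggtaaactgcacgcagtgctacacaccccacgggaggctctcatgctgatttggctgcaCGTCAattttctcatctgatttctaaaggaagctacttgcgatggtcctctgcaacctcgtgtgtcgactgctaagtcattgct
Both strands were searched in all windows. The 8 letters TGACGTCA were found in 1.79% of the 32851 windows of all genes and in 2 of the 81 windows of these genes, both of them overlapping windows of Prkar1a around the same site. TGACG, which is contained in TGACGTCA, was found in 20.8% of all windows and in 18 of the 81, in windows of Adcy7, Adcy9, Akap8l, Akap11, Pde1a, Pde2a, Pde4a, Pde4b, Pde8a, Pde8b, Pkig, Prkaca, Prkacb, Prkar1a, Prkar1b and Prkar2a. Of these 16 genes, Adcy9, Pde8a and Prkacb were tested and not called, and Pde2a and Prkar1b were not tested. ACCACCC was found in 4.61% of all windows and in 5 of the 81, of Pde1b, Pde1c, Pde4b, Prkar1a and Prkar1b. The window of Prkar1a that holds it, chr11:109649113-109649412, is not the one shown. Of these 5 genes, Pde4b rose, Prkar1a fell, and Pde1b, Pde1c and Prkar1b were not tested. The longer Gli site GACCACCCA was found in 0.253% of all windows and in none of the 81. These are matches of letters only, and binding was not measured.

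Synthesis of cAMP was represented by 9 adenylyl cyclase genes, of which 6 were tested. Of these, 1 rose and 2 fell, beside 31.4% and 31.1% of all genes tested. The 2 that fell, Adcy1 and Adcy7, both changed by at least 1.5-fold, beside 7.56% of all genes that fell by as much. Adcy1 encodes a cyclase stimulated by calcium and calmodulin and lies at chr11:7063489-7178506 in GRCm38. It had 591, 538 and 535 reads in the DMSO libraries and 138, 138, 151 and 160 in the purmorphamine libraries. Every purmorphamine library was far below every DMSO library, and the log2 fold change was -1.96 (SE, the standard error, 0.0803 and adjusted p = 3.47e-12). This was the largest decrease among the 38. Adcy7 had 201, 204 and 171 reads with DMSO and 105, 145, 135 and 122 with purmorphamine, again without overlap. Its log2 fold change was -0.65 (SE 0.115 and adjusted p = 0.000193), and -0.56, under 1.5-fold, without purmorphamine replicate 5.

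Adcy6, a cyclase inhibited by calcium, had the most reads per kilobase of exon of its family. Its counts were 1517, 1685 and 1490 with DMSO and 1685, 1780, 1604 and 1591 with purmorphamine, groups that overlapped, with a log2 fold change of 0.04 (SE 0.0545 and adjusted p = 0.545). It was called, just under the threshold, with library totals in place of TMM factors. Adcy3, a cyclase known from primary cilia, had 258, 283 and 294 reads with DMSO and 331, 355, 298 and 309 with purmorphamine. The lowest purmorphamine library stood only 4 reads above the highest DMSO library. The log2 fold change was 0.17 (SE 0.0828 and adjusted p = 0.107), a call that was lost without DMSO replicate 2 (adjusted p = 0.339). Adcy9 and Adcy4 did not pass the test, and Adcy4 had a mean of only 8.67 reads with DMSO. On the scale of reads per kilobase, Adcy6 made up 62.1% ± 0.708 (SD, n = 3) of the family's total with DMSO and 69.7% ± 0.531 (SD, n = 4) with purmorphamine. The share of Adcy1 was 12.0% ± 1.07 with DMSO and 3.34% ± 0.388 with purmorphamine, and that of Adcy3 12.0% ± 1.02 and 14.7% ± 0.495. The family's total itself was 371 ± 20.7 reads per kilobase with DMSO and 352 ± 17.8 with purmorphamine, with overlapping libraries. These shares and totals are given as a description, without a test.

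The genes named for phosphodiesterases, which break down cAMP and cGMP, had 18 rows, of which 13 were tested. Of these, 7 rose and 4 fell, beside 31.4% and 31.1% of all genes tested. The 7 include Pde6d, whose product is not an enzyme. Changes of at least 1.5-fold were found for 5 that rose and 2 that fell, beside 7.89% and 7.56% of all genes. The 5 include Pde7b, which passed the filter on low counts only through its purmorphamine libraries. With at least 10 counts required in every library, 6 rose. The cAMP-specific families 4, 7 and 8 accounted for 9 of the rows and 8 of those tested, with 5 that rose and 2 that fell. These 5 include Pde7b and both rows of Pde4d. Of the enzymes of families 1 to 3, which hydrolyze both cyclic nucleotides, 3 of 6 were tested, with 1 that rose and 1 that fell. The remaining 3 rows, of Pde5a, Pde6a and Pde6d, belong to the cGMP families.

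Pde8b encodes a high-affinity cAMP phosphodiesterase and lies at chr13:95024454-95250336. It had 86, 99 and 115 reads with DMSO and 362, 397, 387 and 371 with purmorphamine. The groups were far apart, with a log2 fold change of 1.87 (SE 0.0993 and adjusted p = 8.71e-11). Pde3a, whose product hydrolyzes cAMP and is inhibited by cGMP, lies at chr6:141249269-141507448. It had 58, 45 and 50 reads with DMSO and 221, 256, 217 and 186 with purmorphamine. The log2 fold change was 2.06 (SE 0.139 and adjusted p = 2.14e-09), and each purmorphamine library held more than any DMSO library.

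The other cAMP-specific enzymes did not move together. Pde4b, of the family inhibited by rolipram, had 158, 132 and 136 reads with DMSO and 238, 221, 238 and 235 with purmorphamine. The groups did not overlap, and the log2 fold change was 0.67 (SE 0.0948 and adjusted p = 1.93e-05). Pde4d, of the same family, had 238, 275 and 294 reads with DMSO and 350, 414, 404 and 414 with purmorphamine in the row of ENSMUSG00000021699. It rose by 0.51 on the log2 scale (SE 0.088 and adjusted p = 0.000146). A second row with this symbol, ENSMUSG00000074661, which GENCODE M21 does not list, had 132, 122 and 111 reads and 228, 206, 241 and 188 reads. It rose by 0.78 (SE 0.112 and adjusted p = 2.08e-05), and the rows may be parts of 1 gene, so they are not independent. Pde4a, in contrast, had 238, 270 and 257 reads with DMSO and 215, 258, 205 and 208 with purmorphamine. The groups overlapped through purmorphamine replicate 6, and the log2 fold change was -0.25 (SE 0.0937 and adjusted p = 0.0373).

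Pde7a and Pde7b, which encode cAMP-specific enzymes of 1 family, went in opposite directions. Pde7a had 1438, 1555 and 1344 reads with DMSO and 966, 922, 1044 and 1001 with purmorphamine, with no overlap. Its log2 fold change was -0.60 (SE 0.0584 and adjusted p = 2.10e-07). It fell short of 1.5-fold without DMSO replicate 3 (-0.55), without purmorphamine replicate 6 (-0.56), and with library totals in place of TMM factors (-0.56). Pde7b stood near the limit of detection, with 3, 2 and 3 reads with DMSO and 10, 25, 20 and 13 with purmorphamine. The ratio of the means was 6.38 (95% exact counting interval 3.06 to 15.4). Pde8a was not called, at a log2 fold change of 0.13 (SE 0.105 and adjusted p = 0.316), although its purmorphamine libraries all lay above the DMSO libraries. It was called with library totals in place of TMM factors and without purmorphamine replicate 6.

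Pde1a, which encodes a phosphodiesterase activated by calcium and calmodulin, had 635, 646 and 617 reads with DMSO and 364, 468, 409 and 419 with purmorphamine. The groups did not overlap and the log2 fold change was -0.66 (SE 0.0732 and adjusted p = 1.26e-06). Pde5a, the cGMP-specific enzyme that sildenafil inhibits, had 1958, 1898 and 1793 reads with DMSO and 1761, 1637, 1807 and 1911 with purmorphamine. Its groups overlapped, and the log2 fold change of -0.13 (SE 0.055 and adjusted p = 0.0647) was no longer called without DMSO replicate 2 (adjusted p = 0.259) or with library totals in place of TMM factors. Pde6d encodes a carrier of prenylated proteins, and not an enzyme. It had 434, 375 and 405 reads with DMSO and 516, 459, 455 and 494 with purmorphamine, for a log2 fold change of 0.20 (SE 0.073 and adjusted p = 0.0315).

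**Figure D2:**
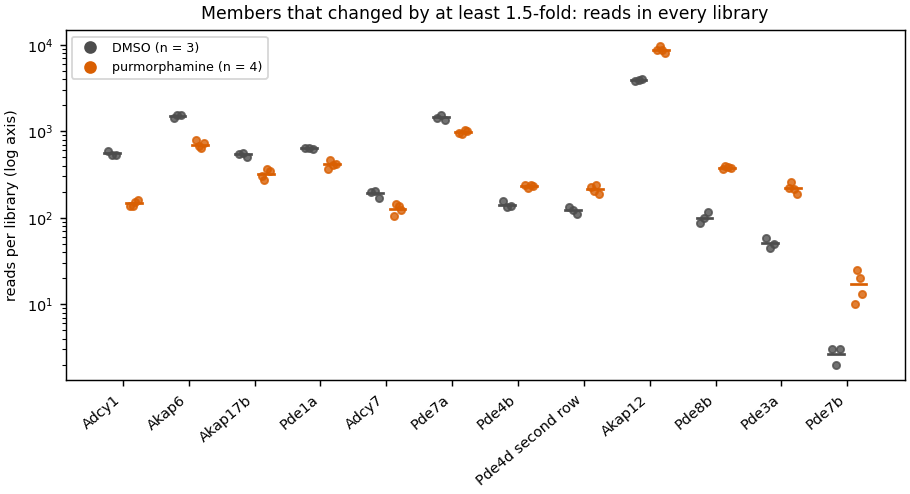
Reads in each library, on a log axis, for the 12 rows that changed by at least 1.5-fold at an adjusted p under 0.2, with DMSO libraries in grey (n = 3), purmorphamine libraries in orange (n = 4) and a line at each group's mean. In all 12 the groups are separate, beside 49.5% of all genes tested, called or not. The 12 were chosen by their change in these same libraries, so their separation is no added support. Pde7b lies lowest at 2 to 25 reads.

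On the scale of reads per kilobase, the phosphodiesterases summed to 795 ± 18.9 (SD, n = 3) with DMSO and 804 ± 14.2 (SD, n = 4) with purmorphamine, and the libraries of the treatments overlapped. The second Pde4d row has no exon length and is not part of these sums, while Pde6d is, at 23.4% ± 1.60 with DMSO and 27.5% ± 1.45 with purmorphamine. The makeup of the total differed more than the total did. Pde8b accounted for 2.14% ± 0.363 with DMSO and 8.03% ± 0.443 with purmorphamine, and Pde7a for 23.5% ± 1.45 and 15.8% ± 0.768. Pde1a accounted for 13.2% ± 0.215 and 8.60% ± 0.958. The cAMP-specific families together held 38.2% ± 1.56 with DMSO and 38.7% ± 0.894 with purmorphamine, and these shares overlapped, with a lower share of Pde7a beside higher shares of Pde8b, Pde4b and Pde4d.

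**Figure D3:**
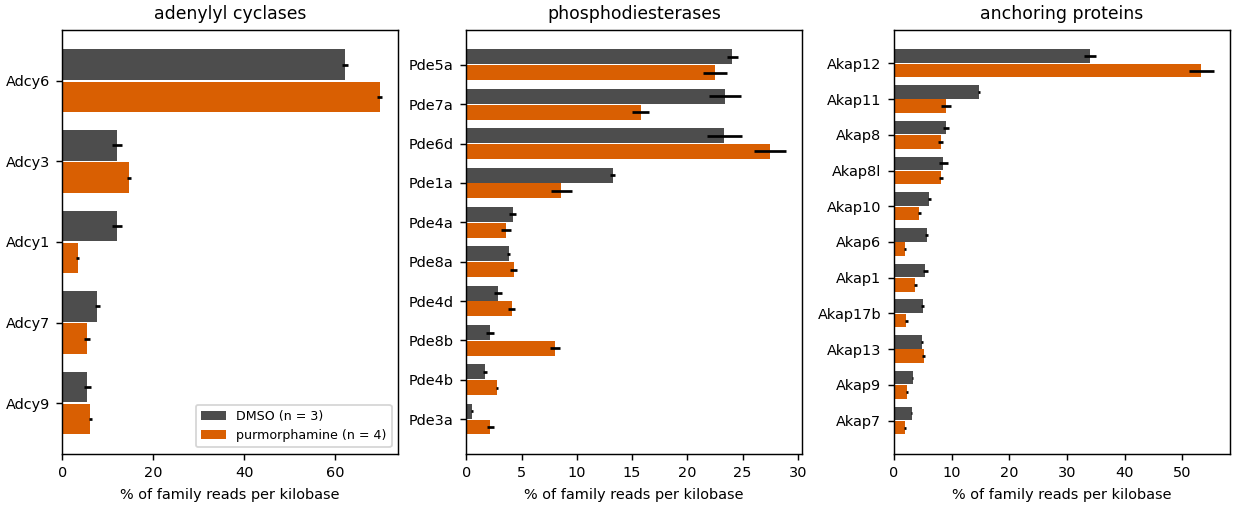
Share of each gene in the summed reads per kilobase of its family, in percent, as means with bars for the SD, with DMSO in grey (n = 3) and purmorphamine in orange (n = 4). Genes under 1% in both groups are not drawn. Adcy6 and Akap12 hold the largest shares of their families in both groups, at 69.7% and 53.2% with purmorphamine, and Pde8b takes 2.14% with DMSO and 8.03% with purmorphamine.

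The kinase subunits changed little. Neither of the 2 catalytic genes nor any of the 3 regulatory genes tested changed by 1.5-fold, beside 15.4% of all genes tested. None of the 5 rose, beside 31.4%. Of the catalytic genes 1 of 2 fell and of the regulatory genes 3 of 3, beside 31.1%. These are few genes to set beside such shares. Prkaca, which encodes the catalytic subunit Cα, had 1441, 1455 and 1582 reads with DMSO and 1458, 1434, 1331 and 1464 with purmorphamine. The groups overlapped, and a log2 fold change of -0.12 (SE 0.0517 and adjusted p = 0.0726) was no longer called without DMSO replicate 4 (adjusted p = 0.377) or with library totals in place of TMM factors (adjusted p = 0.284). Prkacb, which encodes Cβ, had 1940, 1929 and 1887 reads with DMSO and 1907, 1908, 1928 and 1858 with purmorphamine. Its log2 fold change of -0.06 (SE 0.0435 and adjusted p = 0.268) did not pass the test.

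Prkar1a, which encodes the type I regulatory subunit RIα, had the most reads per kilobase of the kinase subunits and lies at chr11:109649405-109669656. It had 8369, 8293 and 8680 reads with DMSO and 6863, 7065, 7012 and 7311 with purmorphamine. All purmorphamine libraries lay below all DMSO libraries, with a log2 fold change of -0.31 (SE 0.0439 and adjusted p = 2.19e-05). The type II subunits fell as well, with smaller log2 fold changes. Prkar2a had 914, 957 and 943 reads with DMSO and 862, 845, 830 and 902 with purmorphamine, for a log2 fold change of -0.17 (SE 0.051 and adjusted p = 0.0105). Prkar2b had 2130, 2040 and 2029 reads with DMSO and 1959, 1792, 1912 and 2029 with purmorphamine, so that the highest purmorphamine library tied with the lowest DMSO library. Its log2 fold change was -0.15 (SE 0.0501 and adjusted p = 0.0205). Prkar1b, the other type I subunit, had 8, 5 and 6 reads with DMSO and 11, 8, 2 and 8 with purmorphamine and was not tested.

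Both inhibitor peptide genes tested fell, beside 31.1% of all genes tested, and neither by 1.5-fold, beside 7.56%. Pkig, whose product binds the free catalytic subunit and blocks it, lies at chr2:163658386-163726158. It had 226, 239 and 243 reads with DMSO and 180, 172, 145 and 159 with purmorphamine. The groups did not overlap, with a log2 fold change of -0.57 (SE 0.0928 and adjusted p = 7.57e-05), just under 1.5-fold. It exceeded 1.5-fold without DMSO replicate 2 (-0.60) and without purmorphamine replicate 5 (-0.61). Pkia had 499, 522 and 488 reads with DMSO and 445, 438, 480 and 491 with purmorphamine, with an overlap of 1 library and a log2 fold change of -0.16 (SE 0.0657 and adjusted p = 0.0492).

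The proportion of regulatory to catalytic transcripts was then computed within each library, which does not depend on library scaling. The reads per kilobase of the 4 regulatory genes, divided by those of the 2 catalytic genes, gave 3.33, 3.27 and 3.19 with DMSO and 2.82, 2.85, 3.02 and 2.99 with purmorphamine. All purmorphamine libraries had the lower ratio (p = 0.0286 in a two-sided exact permutation test, the smallest value possible for 3 libraries against 4, and 0.0667 when adjusted over the 7 shares and ratios computed). The ratio of Pkia and Pkig to the catalytic genes was 0.238 ± 0.0116 (SD, n = 3) with DMSO and 0.210 ± 0.00783 (SD, n = 4) with purmorphamine, also without overlap (exact permutation p = 0.0286, adjusted 0.0667). Within the catalytic genes the share of Prkaca was 73.3% ± 1.28 with DMSO and 72.5% ± 1.14 with purmorphamine (exact permutation p = 0.514).

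Within the regulatory genes Prkar1a held 73.2% ± 0.708 of the reads per kilobase with DMSO and 71.1% ± 0.911 with purmorphamine (exact permutation p = 0.0571, adjusted 0.1). The share of Prkar2a was 5.51% ± 0.174 with DMSO and 5.87% ± 0.110 with purmorphamine, narrowly without overlap (exact permutation p = 0.0286, adjusted 0.0667). Prkar2b held 21.2% ± 0.706 and 22.9% ± 0.854 (exact permutation p = 0.0857, adjusted 0.12), and Prkar1b under 0.1% in both means (exact permutation p = 0.486, adjusted 0.514). These 4 shares add to 100% and are not independent of each other. Without DMSO replicate 4 the differences for Prkar1a (-1.69 percentage points) and Prkar2b (1.35 percentage points) no longer passed an adjusted p of 0.2.

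**Figure D4:**
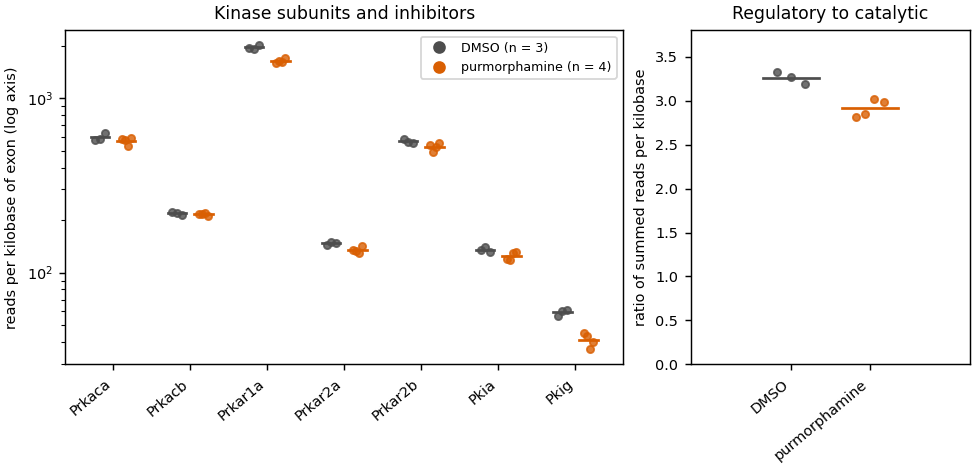
Left, reads per kilobase of exon in each library, on a log axis, for the kinase subunits and inhibitor peptides, with DMSO in grey (n = 3), purmorphamine in orange (n = 4) and a line at each mean. Right, the ratio of summed regulatory to summed catalytic reads per kilobase in each library, at 3.19 to 3.33 with DMSO and 2.82 to 3.02 with purmorphamine.

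Of the 14 anchoring protein genes 12 were tested, of which 4 rose and 5 fell, beside 31.4% and 31.1% of all genes. Changes of at least 1.5-fold were found for 1 that rose and 2 that fell, beside 7.89% and 7.56% of all genes. Akap12, also known as gravin, is a scaffold for protein kinases A and C at the plasma membrane and lies at chr10:4266380-4359470. It had 3868, 3955 and 4057 reads with DMSO and 8608, 9658, 8745 and 7974 with purmorphamine. The purmorphamine libraries all lay far above the DMSO libraries, and the log2 fold change was 1.10 (SE 0.058 and adjusted p = 8.70e-11). Akap6, known for holding the kinase at the nuclear envelope of muscle cells, lies at chr12:52699383-53155599. It had 1438, 1530 and 1546 reads with DMSO and 783, 668, 635 and 724 with purmorphamine. The groups were far apart, with a log2 fold change of -1.15 (SE 0.0627 and adjusted p = 1.35e-10).

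Akap17b had 550, 566 and 504 reads with DMSO and 302, 275, 369 and 349 with purmorphamine, for a log2 fold change of -0.78 (SE 0.0894 and adjusted p = 1.58e-06) without overlap. Akap11, whose product also binds the kinase GSK3β, had 2955, 2936 and 2908 reads with DMSO and 2475, 2308, 2751 and 2542 with purmorphamine. It fell by 0.27 on the log2 scale (SE 0.0551 and adjusted p = 0.000762). Akap13, which is also an exchange factor for RhoA, had 1761, 1929 and 1775 reads with DMSO and 2717, 2630, 2945 and 2592 with purmorphamine. The groups did not overlap, and the log2 fold change was 0.53 (SE 0.0551 and adjusted p = 4.90e-07).

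The nuclear anchoring protein gene Akap8 had 1435, 1503 and 1302 reads with DMSO and 1618, 1871, 1898 and 1745 with purmorphamine. It rose by 0.29 on the log2 scale (SE 0.062 and adjusted p = 0.00105), as its relative and neighbor on chromosome 17, Akap8l, did by 0.37 (SE 0.0678 and adjusted p = 0.000269). Akap7 and Akap2 fell by 0.22 and 0.36 on the log2 scale (adjusted p = 0.0495 and 0.171). The value of Akap2 is uncertain, since 84.4% of its exon bases are shared with the annotated gene Pakap and its groups overlapped. Its call was lost without DMSO replicate 4 (adjusted p = 0.686), without purmorphamine replicate 7, with library totals, with DESeq2 and without a filter. Akap1, Akap9 and Akap10, at log2 fold changes of -0.12, -0.08 and -0.03, did not pass the test. Akap1 was called without DMSO replicate 2 (adjusted p = 0.172) and without purmorphamine replicate 6 (adjusted p = 0.0982). The lowest adjusted p of Akap9 over the alternatives was 0.0703. The anchoring proteins summed to 1803 ± 24.1 reads per kilobase with DMSO and 2541 ± 114 with purmorphamine. Akap12 alone accounted for 34.0% ± 0.987 of this total with DMSO and 53.2% ± 2.17 with purmorphamine.

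Other genes of the pathway were counted from lists. Of 14 receptor and G protein α subunit genes tested, 7 rose and 3 fell, beside 31.4% and 31.1% of all genes tested. The median log2 fold change of the 14 was 0.24, and 4 rose without DMSO replicate 2. The list mixes Gs-coupled receptors and Gs-type subunits with subunits of the inhibitory Gi family. The 7 that rose were Ptger4, Ptgir, Gnal and, of the Gi family, Gnai1, Gnai2, Gnao1 and Gnaz. Gnai2 and Gnao1 rose by 0.20 and 0.28 on the log2 scale, while Gnai1 and Gnaz had at most 12 and 21 reads. Gnai1, with 7 or 8 reads with DMSO, passed the filter on low counts only through its purmorphamine libraries. With at least 10 counts required in every library, 5 of the list rose. Gnai3, also of the Gi family, was not called (log2 fold change 0.01 and adjusted p = 0.872). Gnas, which encodes Gαs, had 1868 ± 27.5 reads (SD, n = 3) with DMSO and 1730 ± 144 (SD, n = 4) with purmorphamine, and fell by 0.16 on the log2 scale (SE 0.0566 and adjusted p = 0.0298). Gpr161, a ciliary receptor that raises cAMP and restrains the Hedgehog pathway, had 175 ± 6.43 and 176 ± 18.6 reads (log2 fold change -0.04, adjusted p = 0.759), and its sign changed without purmorphamine replicate 8. Ptger4, a receptor for prostaglandin E2 that acts through Gαs, had 11, 18 and 11 reads with DMSO and 173, 153, 164 and 141 with purmorphamine. It showed no overlap and a log2 fold change of 3.51 (SE 0.183 and adjusted p = 7.69e-11). Calcrl, a receptor subunit for calcitonin gene-related peptide and adrenomedullin, fell by 0.77 (SE 0.0472 and adjusted p = 5.75e-10). The adenosine receptor gene Adora2b fell by 0.88 (SE 0.139 and adjusted p = 5.78e-05).

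Of the 6 readers of cAMP tested other than protein kinase A, 3 rose and 1, Hcn2, fell, beside 31.4% and 31.1% of all genes. The call of Hcn2 was lost when any of 5 libraries was left out. The 3 that rose include Rapgef4 (adjusted p = 0.13), with 3, 4 and 13 reads with DMSO and 12, 12, 13 and 11 with purmorphamine. Its groups overlapped, and it passed the filter on low counts only through its purmorphamine libraries. With at least 10 counts required in every library, 2 rose. Rapgef3, which encodes the exchange factor Epac1, rose from 60.3 ± 5.03 to 104 ± 14.2 reads, for a log2 fold change of 0.74 (SE 0.144 and adjusted p = 0.000448). Of the 6 other cyclic nucleotide enzymes and exporters, 5 fell and none rose, beside 31.1% and 31.4% of all genes tested. The 5 included Pde9a, a cGMP-specific phosphodiesterase, at -0.94 (SE 0.107 and adjusted p = 1.64e-06). Pde10a and Abcc4 had log2 fold changes of -0.24 and -0.23 with overlapping groups. Prkg1 had only 5 to 18 reads per library and reached 10 in all DMSO libraries but not in all purmorphamine libraries. Prkg2, a cGMP-dependent kinase, fell from 121 ± 11.4 to 49.3 ± 7.59 reads, for a log2 fold change of -1.34 (SE 0.141 and adjusted p = 6.14e-07). Of the 8 CREB factors and coactivators, 2 rose, neither by 1.5-fold, and none fell, beside 31.4% and 31.1% of all genes tested. The count that rose was 4 without DMSO replicate 3 and 5 with library totals in place of TMM factors. Creb1 itself had a log2 fold change of -0.05 (adjusted p = 0.476).

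The list of early response genes to cAMP, many of which also respond to growth factors and stress, had 15 genes tested, of which 10 fell and 4 rose, beside 31.1% and 31.4% of all genes tested. The median log2 fold change of the list was -0.53. By at least 1.5-fold, 7 of the 15 fell, beside 7.56% of all genes tested. Both counts of genes that fell include Ppargc1a, with 17, 26 and 20 reads with DMSO and 2, 2, 3 and 2 with purmorphamine. Ppargc1a passed the filter on low counts only through its DMSO libraries. With at least 10 counts required in every library, 9 fell. Rgs2, a regulator of G protein signaling, fell from 302 ± 33.6 to 101 ± 9.39 reads (SD, n = 3 and n = 4), for a log2 fold change of -1.63 (SE 0.105 and adjusted p = 1.09e-09). The nuclear receptor gene Nr4a1 fell from 216 ± 26.4 to 90.8 ± 7.18 reads (log2 fold change -1.29, adjusted p = 6.09e-08). Fos, Gadd45b, Btg2 and Ptgs2 also fell, with log2 fold changes of -1.15, -0.998, -0.89 and -0.76, each without overlap of the groups. The 4 that rose were Dusp1, Sik1, Nr4a2 and Egr1, with log2 fold changes of 0.45, 0.30, 0.29 and 0.26. Each rose without overlap of the groups, and none by 1.5-fold.

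**Figure D5:**
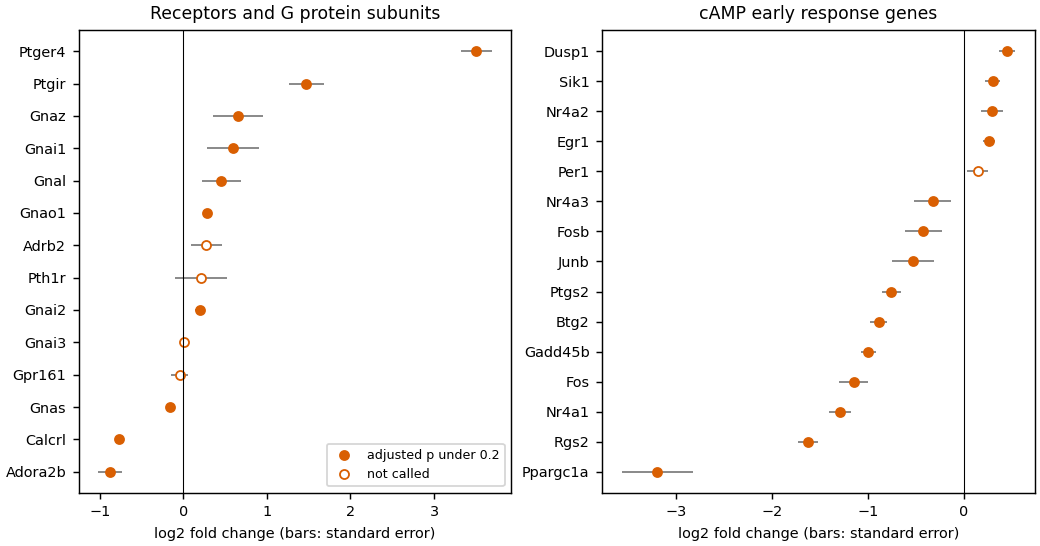
Log2 fold change, purmorphamine against DMSO, of the genes tested in the list of receptors and G protein subunits (left, 14 genes) and in that of early response genes to cAMP (right, 15 genes), with bars for the standard error. Filled points passed an adjusted p of 0.2. On the left Ptger4 lies farthest to the right at 3.51, and on the right 10 of the filled points lie below 0.

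The last list held the Gli factors, the proteins that process them and readouts of the pathway. Of its 10 genes 4 rose and 4 fell, beside 31.4% and 31.1% of all genes tested. Gli2, the main activator, rose from 272 ± 11.5 to 698 ± 50.9 reads (log2 fold change 1.31, SE 0.0741 and adjusted p = 2.04e-10). Gli3, the main source of repressor, had 1633 ± 77.9 reads with DMSO and 1563 ± 21.7 with purmorphamine. The log2 fold change was -0.11 (SE 0.047 and adjusted p = 0.0648), and this call was lost without DMSO replicate 3 (adjusted p = 0.252) and with library totals in place of TMM factors (adjusted p = 0.285). Ptch1, which encodes the Hedgehog receptor, rose by 4.34 on the log2 scale (SE 0.0597 and adjusted p = 6.39e-18). Csnk1a1 and Gsk3b encode kinases that phosphorylate Gli proteins after protein kinase A has done so. Each fell by 0.22 on the log2 scale (adjusted p = 0.00128 and 0.000725).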

How the data were processed

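RNA from C3H10T1/2 cells given purmorphamine (4 libraries) or DMSO (3 libraries) was sequenced. The authors resampled the reads to equal numbers, counted the sense-strand reads of every gene, and deposited these whole-number counts. The submitters' processing notes name STAR 2.5.3a and mm9, and the annotation release is not given in the sources used here.

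Counts were tested on the whole table with edgeR 4.0.16 in R 4.3.3 (TMM factors, default filter of 10 counts, quasi-likelihood test, Benjamini-Hochberg adjustment). The calculation was checked on simulated counts. Shares were tested by exact permutation of the libraries (35 possible assignments) and used reads per kilobase of merged exons from GENCODE M21 (GRCm38), matched by Ensembl identifier for 48 of the 49 rows.

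The genes and lists were chosen with earlier results of these data known. Named were all kinase subunits and inhibitors, the 3 genes of most reads per kilobase per other family, and those changed at least 1.5-fold with a mean of at least 20 reads. Outside the family genes, Gnas, Gpr161, Gli1, Gli2, Gli3, Ptch1 and listed genes changed at least 1.5-fold with a mean of at least 50 reads were named. Others, among them Pde4a, Pde4d, Pde7b, Pde8a, Akap2, Akap7, Akap8l, Akap13, Creb1, Hcn2, Csnk1a1 and Gsk3b, were named after their values were seen. Alternatives were limma-voom 3.58.1, DESeq2 1.42.0, other scaling, filters and threshold, and each library left out. A further list of cell type markers is not reported here.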

Additional observations from a re-analysis of the deposited data

Results flagged for a closer look

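Among 63 groups of 4 purmorphamine libraries examined, 4 held a library whose distance to its nearest neighbor, as a share of the group's whole range, was above Dixon's 95% critical value (chance alone gives about 1 in 20 groups). For Pde4d, purmorphamine replicate 5 was the lowest at 345 scaled reads, with a distance of 0.907 of the range. For Pde4a, purmorphamine replicate 6 was the highest at 253 scaled reads, with a distance of 0.833. For Gpr161, purmorphamine replicate 8 was the lowest at 146 scaled reads, with a distance of 0.929. For Adora2b, purmorphamine replicate 7 was the lowest at 52.7 scaled reads, with a distance of 0.958. The 4 values belong to 4 different libraries.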

How the results depend on the processing

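Over other scaling, DESeq2, limma-voom, other filters, an adjusted p of 0.05 and each library left out, 11 to 14 of the cAMP and protein kinase A genes rose and 14 to 18 fell, and 5 or 6 rose and 5 to 7 fell by at least 1.5-fold. Library totals in place of TMM factors gave 14 that rose and 14 that fell, and shifted the median of all genes by 0.0475 on the log2 scale. The median log2 fold change of members tested, -0.10, was -0.0531 with library totals, -0.12 without a filter, and -0.13 to -0.059 with a library left out. Of 528 values of the 38 genes under these alternatives, 501 kept direction and side of the threshold, 14 lost the call, 6 gained it and 7 changed sign, and 27 of the 38 genes kept both throughout. Among the 38 the sign changed for Adcy4 (-0.27 to 0.34 with a library left out, above 0 without DMSO replicate 4 or purmorphamine replicate 6 or 8), Adcy9 (-0.056 to 0.22, below 0 without DMSO replicate 2 or 4) and Akap10 (0.013 with library totals, and -0.068 to 0.0034, above 0 without DMSO replicate 2), none of which was called. Outside the 38 it also changed for Gpr161 (0.0037 with library totals, and -0.069 to 0.036, above 0 without purmorphamine replicate 8), which was not called. Counts within lists moved by over 1.5 times for the CREB factors that rose (2, but 5 with library totals and 1 at an adjusted p of 0.05), the receptors and G proteins that rose (7, but 4 at 0.05) or fell (3, but 5 without a filter), the Gli list that fell (4, but 2 at 0.05), the cyclases that rose (1, but 2 with library totals and 0 at 0.05), and the catalytic genes (1) and other cAMP readers (1) that fell (0 with library totals and at 0.05). The cause was not tested.

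With each library left out, the difference in share, purmorphamine minus DMSO in percentage points, ran from -2.49 to -1.69 for Prkar1a, from 0.00568 to 0.0405 for Prkar1b and from 1.35 to 2.11 for Prkar2b. The call for Prkar2b was lost without DMSO replicate 4 or purmorphamine replicate 5, 7 or 8, when fewer assignments of libraries remain. Prkar1b, at no more than 11 reads in a library, passed only without purmorphamine replicate 7 (adjusted p = 0.14). Depth limits what can be said of the 11 genes not tested. No paired analysis was possible because the 2 treatments share no replicate number.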
